A study of Homo sapiens with 12 samples.

Results

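The genes described here are 10 that the transcriptional coactivator YAP and its DNA-binding partners of the TEAD family are known to switch on: ANKRD1, CCN1, CCN2, AMOTL1, AMOTL2, AJUBA, LATS2, AXL, CRIM1 and F3. They were taken by name, and all 10 were found among the 20307 genes of the deposited expression table. The samples came from Hep3B and Huh7, both established cell lines from human liver cancer, and formed 6 groups of 2 mRNA libraries, A1 and B1. Hep3B cells were controls, received lenvatinib at 20 µM, received WWL70 at 20 µM, or received WWL70 at 20 µM together with lenvatinib, whose dose in that group is not stated. Lenvatinib is a kinase inhibitor used against liver cancer, and WWL70 inhibits the lipid hydrolase ABHD6. Huh7 cells were controls or cells labelled lenvatinib-resistant. The labels give no exposure time, no solvent for the controls, no number of resistant clones, and no word on whether resistant cells were kept in the drug. Neither do they say that A1 and B1 were separate cultures, so p-values reflect only how far these samples spread, which may be technical variation.

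In the Hippo pathway, the kinases MST1 and MST2 activate LATS1 and LATS2, which phosphorylate YAP and its paralogue TAZ and hold them in the cytoplasm. When the kinases are inactive, YAP and TAZ enter the nucleus, bind TEAD factors and switch on genes of growth, adhesion and the matrix, often together with AP-1. In liver the pathway is known for its control of organ size, and several of its target genes (LATS2, AMOTL2, AJUBA) themselves act on the pathway.

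The promoters of the 4 genes below are shown because they hold the sequence elements in the plainest form: ANKRD1 and CCN2 as the most used readouts of YAP, AMOTL2 as a target that feeds back on YAP, and F3 as a target with AP-1 elements and no TEAD element in this window. Each runs 5′ to 3′ on the gene's own strand, from 250 bases before to 50 bases after a RefSeq transcription start, and is credited to RefSeq on GRCh38.p14. Capitals mark the TEAD element GGAATG, which reads CATTCC on the other strand, and the AP-1 element TGANTCA. The windows are chr10:90921038-90921337 for ANKRD1, chr6:131951323-131951622 for CCN2, chr3:134374398-134374697 for 1 of 2 AMOTL2 starts and chr1:94541710-94542009 for F3, all on the minus strand.
ANKRD1: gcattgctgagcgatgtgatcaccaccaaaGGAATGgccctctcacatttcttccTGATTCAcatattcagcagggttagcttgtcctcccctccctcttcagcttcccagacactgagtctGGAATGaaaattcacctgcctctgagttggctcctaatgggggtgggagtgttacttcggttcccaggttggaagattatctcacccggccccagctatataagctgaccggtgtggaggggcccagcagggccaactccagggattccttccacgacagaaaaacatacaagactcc
CCN2: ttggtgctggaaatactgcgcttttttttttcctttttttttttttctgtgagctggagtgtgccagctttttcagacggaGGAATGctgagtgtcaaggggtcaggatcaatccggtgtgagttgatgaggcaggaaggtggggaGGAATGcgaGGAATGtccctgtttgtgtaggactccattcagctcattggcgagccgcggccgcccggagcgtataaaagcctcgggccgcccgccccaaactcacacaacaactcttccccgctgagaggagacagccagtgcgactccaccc
AMOTL2: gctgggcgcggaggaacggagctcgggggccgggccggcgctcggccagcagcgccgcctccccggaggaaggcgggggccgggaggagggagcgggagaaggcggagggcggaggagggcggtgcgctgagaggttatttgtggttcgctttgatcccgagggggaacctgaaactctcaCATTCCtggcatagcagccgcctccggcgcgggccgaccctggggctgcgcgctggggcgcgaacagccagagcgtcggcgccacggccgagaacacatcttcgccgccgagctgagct
F3: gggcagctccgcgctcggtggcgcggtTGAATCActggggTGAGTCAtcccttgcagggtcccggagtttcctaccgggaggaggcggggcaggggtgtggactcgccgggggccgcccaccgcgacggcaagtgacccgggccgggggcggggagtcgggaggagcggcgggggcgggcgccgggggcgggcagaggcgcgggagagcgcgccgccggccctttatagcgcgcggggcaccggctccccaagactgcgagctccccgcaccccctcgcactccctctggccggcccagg

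CCN2 held 3 copies of the TEAD element, beginning 169, 104 and 95 bases upstream of the start. ANKRD1 held 2, at 220 and 128 bases upstream, with an AP-1 element between them at 195. AMOTL2 held 1, at 69 bases upstream, and AJUBA held 1 at 59 bases upstream of 1 of its 2 starts. LATS2 and AXL each held 1 as well. F3 held no TEAD element and 2 AP-1 elements, at 223 and 210 bases upstream. Windows were found for 8 of the 10 genes, CCN1 and CRIM1 being named only, and 6 of their 11 windows (54.5%) held GGAATG on either strand. Of 35116 windows of the same length for all genes, 14.0% held it at least once, 1.37% at least 2 times and 0.128% at least 3 times. TGANTCA stood in 2 of the 11 windows, those of ANKRD1 and F3, and in 7.71% of all windows. The 2 elements shared no base in these windows. A match is a string of letters and no evidence of binding, which was not measured.

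**Figure D1:**
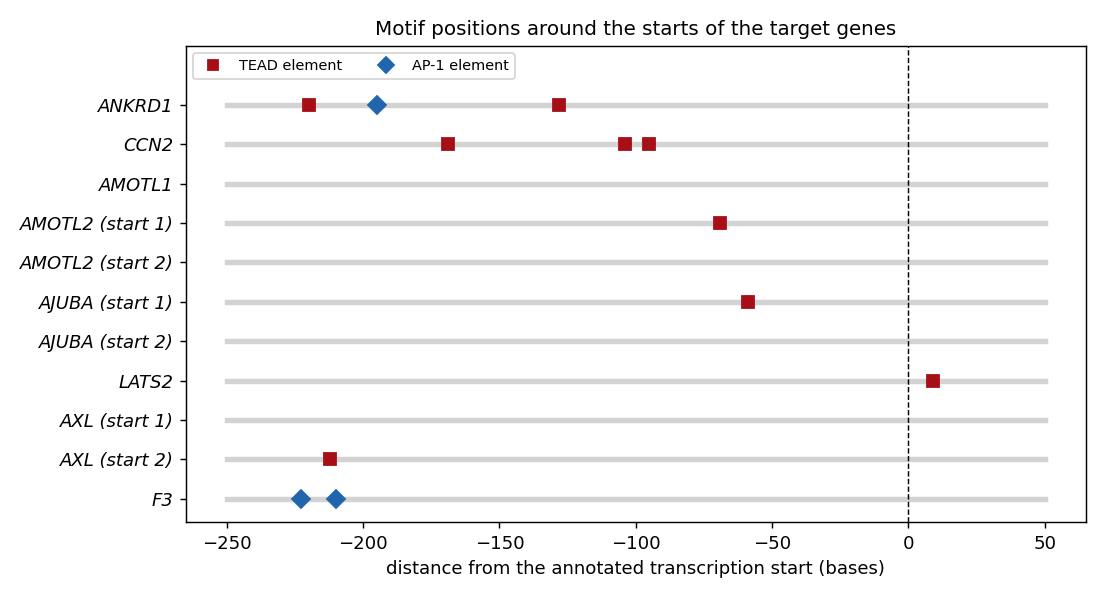
Positions of the TEAD element (GGAATG, red squares) and the AP-1 element (TGANTCA, blue diamonds), on either strand, in bases from the annotated transcription start, for the 11 windows of the 8 genes found. CCN2 has 3 red squares, ANKRD1 2 with a blue diamond between them, and F3 2 blue diamonds alone.

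Levels are in TPM, a unit scaled to transcript length and to the total of each library, so levels of different genes can be set side by side. Fold changes come from limma on log2(TPM + 1), a scale that understates changes of genes with low TPM, and a call means a Benjamini-Hochberg adjusted p below 0.05 over all 13645 genes tested. AXL was the 1 gene of the 10 left out of the tests, since it reached 1 TPM in only 1 library. The other 9 were above 1 TPM in all 12 libraries, the lowest value being 1.85 TPM for F3. The 4 Hep3B groups and the 2 Huh7 groups held bulk RNA, in which fewer cells of a type and less RNA per cell cannot be told apart.

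Albumin and 5 other genes of the hepatocyte lineage were above 1 TPM in every library, summing to 15106 to 51715 TPM, matching the labelled liver origin. The combination library A1 stood apart. Its median difference from B1 over tested genes was 0.76 on the log2 scale, against 0.32 in resistant Huh7, 0.24 with lenvatinib and 0.11 to 0.13 in the other 3 groups. In these first 3 groups the difference between A1 and B1 followed transcript length across genes (Spearman correlations of -0.59, -0.59 and -0.52 over 13573 genes, which share the 2 libraries), long transcripts being lower in A1. Of the 9 tested target genes, all were higher in B1 than in A1 of the combination, 8 in resistant Huh7 and 7 with lenvatinib. The share of all tested genes higher in B1 was not counted. The median over all genes was also lower in A1 than in B1 of these groups. It was 2.96 and 6.32 TPM in the combination, 4.93 and 6.19 in resistant Huh7, and 5.91 and 6.92 with lenvatinib. The longest members, AMOTL1 (8970 bases), CRIM1 (5912) and LATS2 (5511), differed most between the 2 combination libraries, by 1.88, 2.19 and 1.78 on the log2 scale. The part of library quality in any result was not tested.

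The target genes were highest in the lenvatinib-resistant Huh7 cells. Of the 9 tested, 6 rose against control Huh7 and none fell, where 18.9% of all tested genes were called in either direction and 12.3% were called higher. Of all calls 64.9% were higher, and 51.3% with quantile normalization. Their median log2 difference was 1.31, against -0.06 over all tested genes. In 8 of the 9 both resistant libraries lay above both control libraries, which held for 31.0% of all tested genes.

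ANKRD1, a nuclear ankyrin-repeat protein of stretched muscle and a standard readout of YAP, lies on chromosome 10 (90912096 to 90921276, GRCh38). It stood at 12.3 and 6.73 TPM in the 2 control Huh7 libraries and at 246 and 251 TPM in the 2 resistant ones. The mean was 26.2 times as high in resistant cells, with no overlap and a gap far wider than the spread within either group. Its promoter, printed above, holds 2 TEAD elements and 1 AP-1 element. The log2 fold change was 4.62 (SE 0.29, limma adjusted p = 1.378e-05).

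CCN1 and CCN2 encode secreted matrix-bound proteins of one family that signal through integrins. CCN1 (chromosome 1, 85580761 to 85583962) had 20.8 and 16.5 TPM in control Huh7 and 80.7 and 98.9 TPM in resistant cells. The groups lay far apart, and CCN1 rose by 2.21 on the log2 scale (SE 0.22, limma adjusted p = 0.0001626). CCN2 (chromosome 6, 131948176 to 131951373) had 90.0 and 83.6 TPM in controls and 169 and 160 TPM in resistant cells. The groups did not overlap, yet the rise was smaller, 1.90 times the control mean (log2 0.91, SE 0.22, limma adjusted p = 0.0211). Leaving out any one of the 4 Huh7 libraries ended the CCN2 call, with adjusted p of 0.0740 to 0.126.

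F3 encodes tissue factor, the membrane receptor that starts blood clotting by binding factor VII. It lies on chromosome 1 (94529225 to 94541800) and had 7.66 and 6.41 TPM in control Huh7 against 42.2 and 48.6 TPM in resistant cells. Both resistant libraries were several times as high as either control, a log2 rise of 2.53 (SE 0.24, limma adjusted p = 0.0001305). Among families and partners of the target genes, 2 of 8 tested rose in resistant Huh7 and 1 fell. Over all tested genes 18.9% were called there. The called genes belong to the clotting step of tissue factor. TFPI, the inhibitor of tissue factor, fell from 232 ± 30.2 to 64.2 ± 3.95 TPM (SD, n = 2; log2 -1.83, SE 0.26, adjusted p = 0.001433). F7, the ligand of tissue factor, rose by 1.09 on the log2 scale (adjusted p = 0.003151, limma), and F10, which the complex activates, by 0.998 (adjusted p = 0.0187).

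AMOTL2 and AMOTL1 are relatives of angiomotin that bind YAP at cell junctions, and AJUBA is a LIM-domain protein that inhibits LATS kinases. AMOTL2 (chromosome 3, 134355874 to 134375479) had 31.2 and 26.0 TPM in control Huh7 and 101 and 113 TPM in resistant cells. It rose by 1.87 (SE 0.24, limma adjusted p = 0.0007469), with the groups well separated. AJUBA (chromosome 14, 22971174 to 22982642) went from 61.4 and 54.5 TPM to 133 and 156 TPM, again without overlap. Its log2 rise of 1.31 (SE 0.26, limma adjusted p = 0.008957) lost its call without control library B1 (adjusted p = 0.0733) or resistant library B1 (0.0614).

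The 3 tested genes that did not pass were the long ones, and in each the 2 resistant libraries differed widely. AMOTL1 had 9.66 and 9.37 TPM in control Huh7 and 16.1 and 32.4 TPM in resistant A1 and B1 (log2 1.19, SE 0.55, limma adjusted p = 0.179). CRIM1, a transmembrane protein that binds bone morphogenetic proteins, had 23.9 and 19.4 TPM in controls and 31.3 and 69.2 TPM in resistant cells (log2 1.08, SE 0.62, adjusted p = 0.285, limma). LATS2, the kinase that restrains YAP, had 11.8 and 13.0 TPM in controls and 11.95 and 22.7 TPM in resistant cells. AMOTL1 and CRIM1 did not overlap between groups, whereas resistant A1 fell within the control range of LATS2 (log2 0.39, 95% interval -0.76 to 1.53, adjusted p = 0.659, limma). An alternative chosen after seeing the data left out the A1 libraries of the combination and of resistant Huh7. With the 1 resistant library that remained, the log2 differences were 1.67 for AMOTL1, 1.64 for CRIM1 and 0.82 for LATS2.

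**Figure D2:**
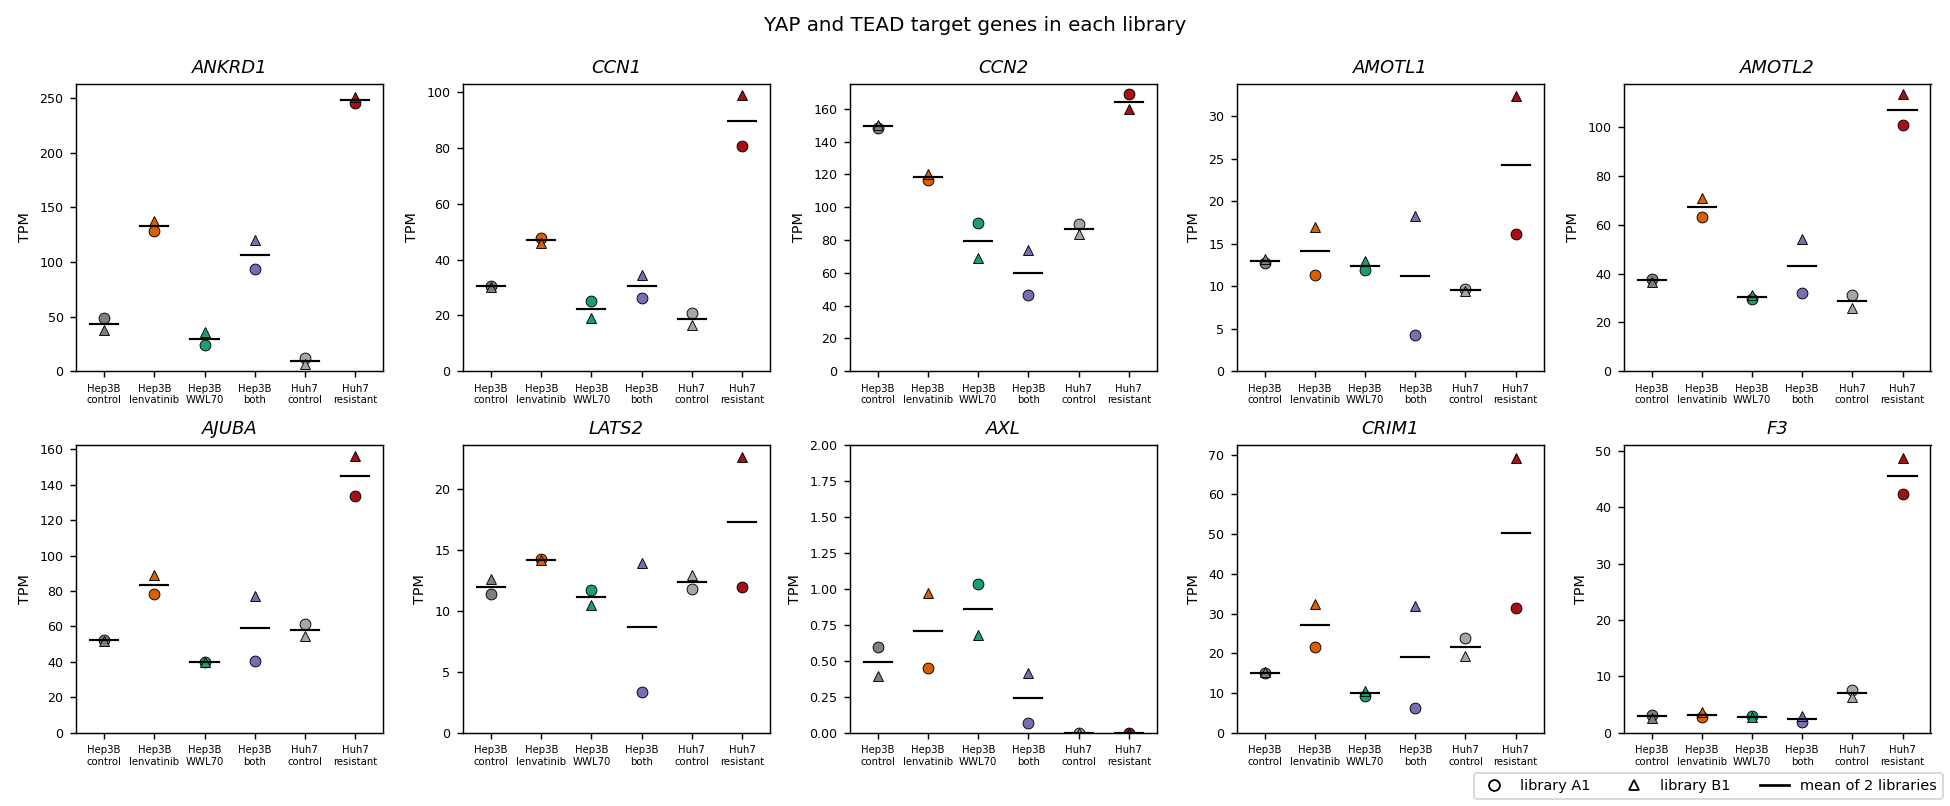
Level of each of the 10 genes in TPM (linear axes starting at 0) in the 12 libraries, with circles for A1, triangles for B1 and bars for the mean of the 2 libraries. The resistant Huh7 libraries have the highest mean for 9 of the 10 genes, AXL being listed at 0 in Huh7, and A1 and B1 lie far apart in the combination for AMOTL1, LATS2 and CRIM1.

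AXL, a receptor tyrosine kinase bound by GAS6, was listed at 0 TPM in all 4 Huh7 libraries, resistant ones included. In Hep3B it had 0.596 and 0.393 TPM in controls, 0.449 and 0.973 with lenvatinib, 1.04 and 0.681 with WWL70 and 0.070 and 0.419 in the combination. All values were near the lower end of the table, and no fold change is given.

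Lenvatinib moved fewer of the target genes in Hep3B, and by less. Of the 9 tested, 1 rose and none fell, where 2.48% of all tested genes were called. Both lenvatinib libraries lay above both controls for 6 of the 9, which held for 24.2% of all tested genes, and below them for 1, which held for 34.8%. The median log2 difference was 0.61, against -0.07 over all tested genes. ANKRD1 had 48.2 and 37.4 TPM in control Hep3B and 129 and 137 TPM with lenvatinib, 3.10 times the control mean with no overlap. Its log2 rise was 1.62 (SE 0.29, limma adjusted p = 0.0261), and the call was lost in 8 of 24 alternatives, with adjusted p between 0.00550 and 0.238 over all of them. These 8 included the omission of any one control or lenvatinib library and the fit of Hep3B alone (0.0733).

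AMOTL2, AJUBA and CCN1 were also higher in both lenvatinib libraries than in both controls, without passing the threshold. AMOTL2 had 37.6 and 36.7 TPM in controls and 63.3 and 71.0 with lenvatinib (log2 0.83, SE 0.24, limma adjusted p = 0.141). AJUBA had 52.2 and 52.0 TPM against 78.3 and 89.0 (log2 0.67, adjusted p = 0.301, limma), and CCN1 30.6 and 30.2 TPM against 47.6 and 46.1 (log2 0.61, adjusted p = 0.244). The replicates of these 3 genes lay close together. With median-ratio scaling AMOTL2 (adjusted p = 0.0183) and AJUBA (0.0360) passed, limma, and without either combination library they passed too.

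CCN2 was the 1 target gene whose lenvatinib libraries lay wholly below the controls. It had 149 and 150 TPM in controls and 116 and 120 TPM with lenvatinib (log2 -0.33, SE 0.22, limma adjusted p = 0.624). CRIM1 and LATS2 lay above the controls without a call, CRIM1 at 14.9 and 15.2 TPM against 21.5 and 32.5 (log2 0.77, adjusted p = 0.713, limma), and LATS2 at 11.4 and 12.6 against 14.3 and 14.2 (log2 0.23, adjusted p = 0.918). AMOTL1 and F3 overlapped between groups. F3 stayed low, at 3.18 and 2.60 TPM in controls and 2.80 and 3.60 with lenvatinib.

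WWL70 alone moved none of the 9 past the threshold, as it moved few genes at all (0.0147% of those tested were called, 2 genes). With array weights, chosen after seeing the data, 1 of the 9 was called (CCN2, limma adjusted p = 0.003168). That setting called 285 of all 13645 tested genes. CCN2 had 90.5 and 68.8 TPM with WWL70 against 149 and 150 TPM in controls, wholly below them (log2 -0.91, SE 0.22, unadjusted p = 0.002783, limma adjusted p = 0.862). For 6 of the 9, both WWL70 libraries lay below both controls, as did 26.3% of all tested genes. The log2 differences of all 9 were below 0, where 47.1% of all tested genes were above 0. Their median was -0.37 against -0.01 over all tested genes. ANKRD1 had 23.8 and 35.5 TPM with WWL70 (log2 -0.53, 95% interval -1.19 to 0.13) and CCN1 25.3 and 19.2 TPM (log2 -0.45, interval -0.94 to 0.05). F3, with 2.90 and 2.76 TPM, differed from the controls by -0.02 (interval -0.57 to 0.53).

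The combination of both compounds left ANKRD1 higher and CCN2 lower than in the same 2 control libraries. These 2 of 9 were the calls, where 8.85% of all tested genes were called. ANKRD1 had 93.2 and 120 TPM in the combination, above both controls (log2 1.29, SE 0.29, limma adjusted p = 0.0297). CCN2 had 46.3 and 73.9 TPM, less than either control by a wide margin, a log2 fall of 1.34 (SE 0.22, limma adjusted p = 0.009409). ANKRD1 lost its call in 9 of 24 alternatives (adjusted p 0.0101 to 0.504) and CCN2 in 4 (0.0001128 to 0.226), without either control library among them for both. The other 7 overlapped the controls, and A1 lay below B1 in each. The all-gene median of this comparison was -0.34 on the log2 scale and 0 with median-ratio scaling, under which 48.3% of called genes were higher instead of 27.6%. With that scaling ANKRD1 had a log2 difference of 1.73, CCN2 of -0.90 and AMOTL2 of 0.59 (limma adjusted p = 0.0101, 0.0147 and 0.0464).

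For the long target genes the result in the combination depended on which of its 2 libraries was used. CRIM1 had 6.21 TPM in A1 and 31.8 in B1, against 14.9 and 15.2 in controls. Its log2 difference was -0.06 with both, 1.03 without the A1 libraries of the combination and resistant Huh7, and -1.16 without combination B1. The last 2 values each rest on 1 combination library, whose group then adds nothing to the measured spread. LATS2 had 3.36 and 14.0 TPM and AMOTL1 4.24 and 18.3 TPM, each with 1 library below and 1 above the controls. Without combination B1 they fell by 1.58 and 1.41 on the log2 scale, where the all-gene median was -0.58.

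Set against lenvatinib alone, the combination called none of the 9 (0.0220% of all tested genes were called). Both combination libraries lay below both lenvatinib libraries for 6 of 9, as for 23.4% of all tested genes. The log2 differences of all 9 were below 0, where only 24.2% of all tested genes were above 0. Their median was -0.62 against -0.29 over all genes, although with median-ratio scaling ANKRD1 stood at 0.02. CCN2 had the largest of the differences (log2 -1.005, SE 0.22, unadjusted p = 0.001511, limma adjusted p = 0.223). With combination A1 as the lone combination library, CCN2 differed by -1.34 and the all-gene median was -0.54. With B1 as the lone one the all-gene median was -0.02. Against WWL70 alone, ANKRD1 was the 1 gene of 9 called (7.90% of all genes), higher by 1.82 (SE 0.29, limma adjusted p = 0.009406). The call was lost without WWL70 library A1 (adjusted p = 0.102, limma) and with array weights (0.417). With median-ratio scaling AMOTL2, AJUBA and CCN1 passed as well, and 51.5% of called genes were higher instead of 30.1%. The interaction of both compounds called none of the 9 (0.00733% of all tested genes), and none had an unadjusted p under 0.05. For ANKRD1 the interaction was 0.20, with a 95% interval of -0.73 to 1.13, and for CCN2 -0.09, with an interval of -0.81 to 0.62.

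**Figure D3:**
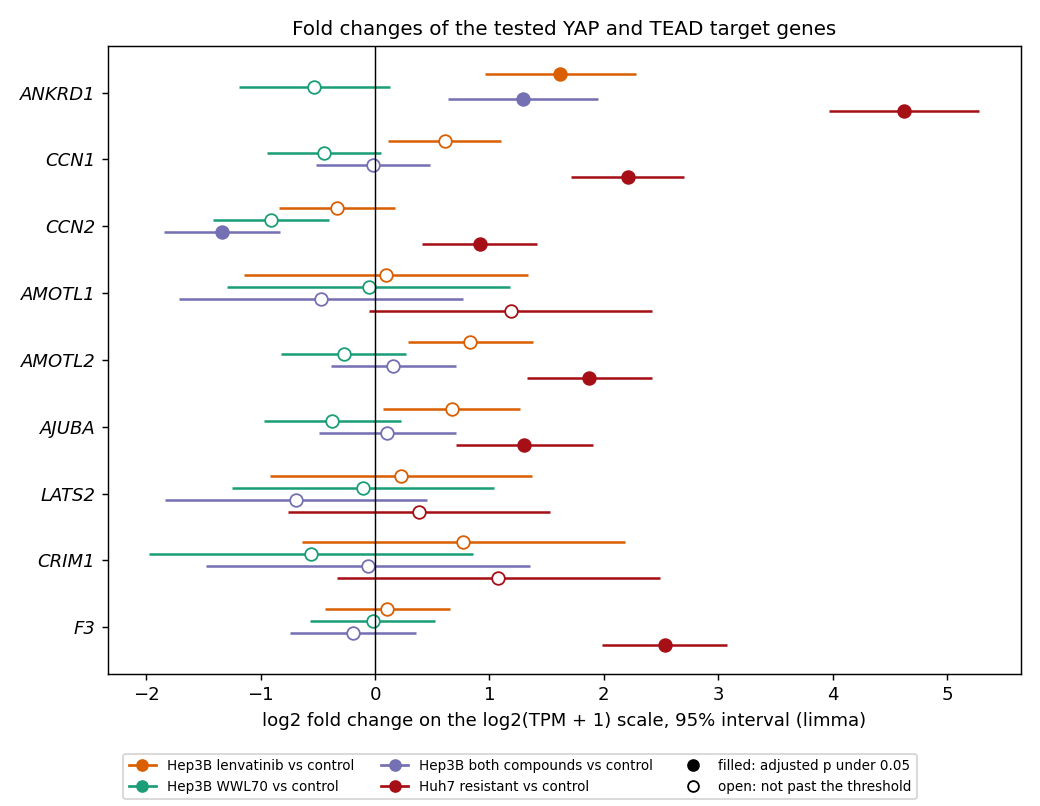
Log2 fold changes of the 9 tested genes on the log2(TPM + 1) scale with 95% intervals from limma, for 3 Hep3B comparisons and resistant against control Huh7; filled points passed an adjusted p under 0.05. The resistant Huh7 points lie rightmost for all 9 genes, with ANKRD1 at 4.62, and CCN2 lies left of 0 in all 3 Hep3B comparisons.

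Before any drug, the lines differed in these genes. Between the control groups 4 of 9 were called, 3 lower and 1 higher in Huh7, where 34.4% of all tested genes were called. ANKRD1 differed by -2.10 on the log2 scale (Huh7 minus Hep3B, SE 0.29, limma adjusted p = 0.0005476). CCN2 differed by -0.78 (adjusted p = 0.0245, limma), CCN1 by -0.68 (0.0391) and F3 by 1.05 (0.009101). All-gene medians were -0.16 and, with median-ratio scaling, 0.01, with 38.6% and 49.4% of called genes higher. With that scaling CCN1 no longer passed (-0.49, adjusted p = 0.0791). CCN1 lost its call in 9 of 23 alternatives, among them quantile normalization and the omission of any one of the 4 control libraries or of either lenvatinib library (limma adjusted p up to 0.228 over all alternatives). CCN2 lost its call without any one of the 4 control libraries, and F3 without Hep3B control B1 or Huh7 control A1 (adjusted p up to 0.127 and 0.0750).

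The effect of resistance in Huh7 exceeded that of lenvatinib in Hep3B for 3 of the 9, where 6.30% of all tested genes were called, 80.6% of them higher (65.1% with quantile normalization). The difference between the log2 fold changes was 3.001 for ANKRD1 (SE 0.41, limma adjusted p = 0.00284), 2.42 for F3 (adjusted p = 0.00325) and 1.6003 for CCN1 (0.0164). CCN2, lower than the controls in lenvatinib-treated Hep3B and higher in resistant Huh7, had a difference of 1.25 (adjusted p = 0.0528, limma). The comparison sets a drug given to one line against a resistant state of the other, so the line and the kind of exposure cannot be told apart.

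The order of group means had resistant Huh7 at the top for 9 of the 10 genes. ANKRD1 ran from resistant Huh7 (248 TPM) through lenvatinib (133), combination (106), Hep3B control (42.8) and WWL70 (29.7) to Huh7 control (9.49), and no neighbours in that order overlapped. CCN1 had resistant Huh7 (89.8) and lenvatinib (46.9) on top, and the Hep3B controls and the combination, at 30.4 each, overlapped. For CCN2 the Hep3B controls (149) came second to resistant Huh7 (164), with lenvatinib next (118), and the last 3 groups (60.1 to 86.8) overlapped with their neighbours. For AMOTL1 every pair of neighbouring groups overlapped. F3 separated the lines: both Huh7 groups lay above all Hep3B groups, which stood between 2.45 and 3.20 TPM in the mean and overlapped.

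Centred within each line, the profiles of AMOTL2 and AJUBA were the most alike among the target genes (root mean square difference 0.18 on the log2 scale over 12 libraries), as were CCN1 and AMOTL2 (0.18), with AMOTL1 and LATS2 next (0.29). By the same measure over all genes with a mean of at least 5 TPM in some group, FMO1, C6 and TRIM31 were nearest to ANKRD1 (0.34 to 0.42). LOXL4, PHLDA1 and ADAMTSL5 were nearest to CCN1 (0.13 to 0.19), and PTGER4, LIMK2 and CSGALNACT1 to CCN2 (0.21 to 0.24). FMO1, which encodes a drug-oxidising enzyme, went from 0.032 to 13.8 TPM in resistant Huh7 and from 0.33 to 4.16 TPM with lenvatinib. LOXL4, a collagen cross-linking enzyme, went from 5.43 to 24.5 TPM and from 68.4 to 120 TPM. These genes were picked for their likeness, and the 12 libraries are shared by all of them.

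Of the genes that drive the targets, YAP1 had 94.8 and 99.2 TPM in control Huh7 and 41.9 and 92.4 TPM in resistant cells (log2 -0.63, SE 0.71, limma adjusted p = 0.600). In Hep3B it had 113 and 110 TPM in controls, 46.5 and 71.1 with lenvatinib, 90.7 and 88.0 with WWL70 and 9.72 and 65.9 in the combination. Every treated library was thus below both controls, and none of these differences passed (adjusted p 0.0989 to 1, limma). A1 lay below B1 for YAP1 in the lenvatinib, combination and resistant groups, as it did for AMOTL1 and CRIM1. WWTR1, which encodes TAZ, had 8.72 and 12.1 TPM in control Huh7 and 23.0 and 45.0 in resistant cells (log2 1.56, SE 0.48, limma adjusted p = 0.0522). It was lower in control Huh7 than in control Hep3B, at 39.3 ± 2.49 TPM (SD, n = 2; log2 -1.83, adjusted p = 0.0161).

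Among the TEAD factors, which bring YAP and TAZ to DNA, TEAD4 rose in resistant Huh7 from 19.1 ± 2.29 to 37.3 ± 1.73 TPM (SD, n = 2; log2 0.94, limma adjusted p = 0.0455). TEAD2 fell from 41.6 ± 1.98 to 21.0 ± 7.53 TPM (log2 -0.997, limma adjusted p = 0.0225). TEAD1 (24.3 ± 0.99 and 31.5 ± 22.1 TPM) and TEAD3 (20.2 ± 0.13 and 24.1 ± 0.61 TPM) did not pass. In all, 1 of the 8 tested genes among YAP, TAZ, TEAD and cofactors rose and 1 fell in resistant cells, a share near the 18.9% called over all tested genes, and none was called with lenvatinib or the combination.

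**Figure D4:**
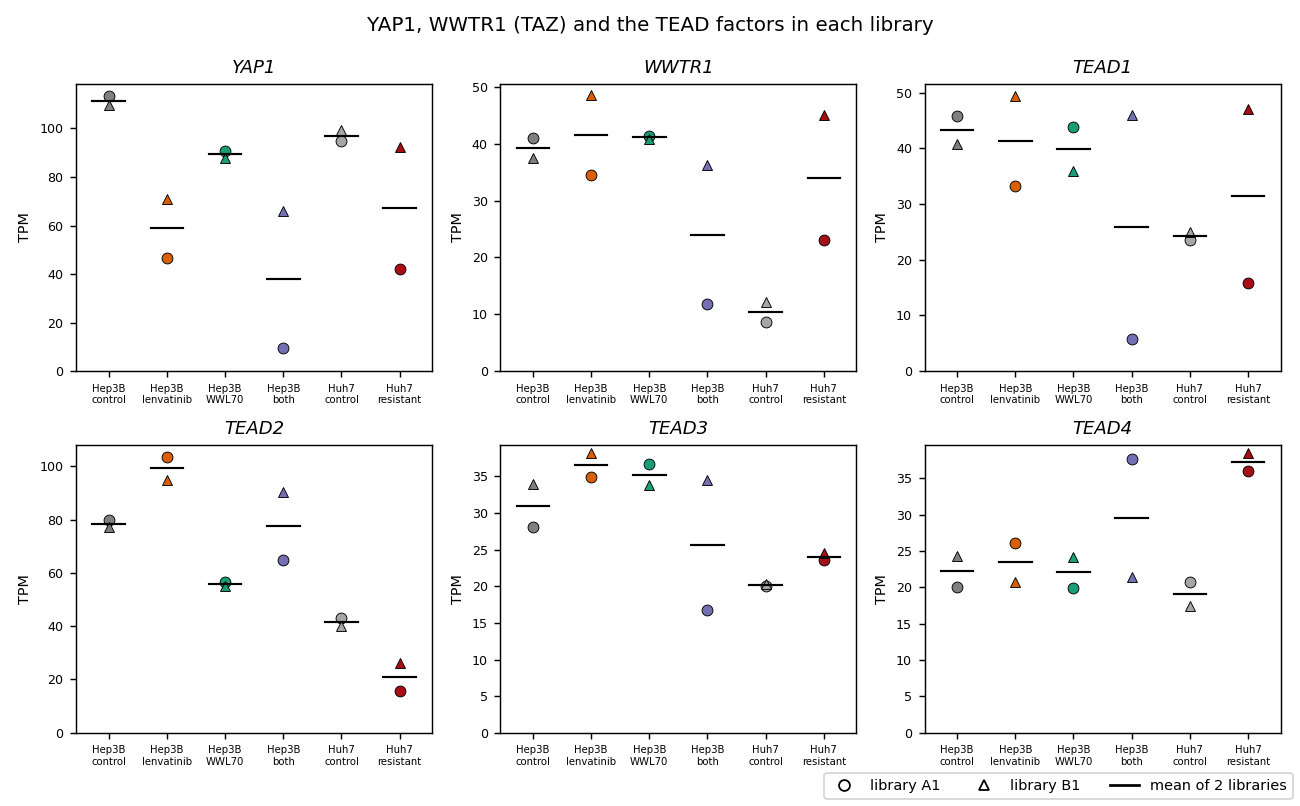
Levels of YAP1, WWTR1 and TEAD1 to TEAD4 in TPM (linear axes starting at 0), with circles for A1, triangles for B1 and bars for the mean of the 2 libraries. YAP1 is at 9.72 and 65.9 TPM in the 2 combination libraries, and TEAD4 and TEAD2 move in opposite directions in resistant Huh7.

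Upstream, 3 of 20 Hippo kinases and regulators rose in resistant Huh7 and none fell, a share near the 12.3% of all tested genes called higher. The 3 were WWC1, the scaffold KIBRA (log2 1.69, limma adjusted p = 0.0009905), WTIP, a LIM-domain relative of AJUBA (2.33, 0.0102), and AMOT, angiomotin (1.77, 0.0330). WWC1, itself known to respond to YAP, was also the 1 gene of this list called with lenvatinib, from 40.0 ± 1.11 to 93.3 ± 1.63 TPM (SD, n = 2; log2 1.201, adjusted p = 0.0323). In the combination the 1 call was FRMD6, a junctional protein linked to the kinases, which fell from 25.5 ± 3.37 to 3.10 ± 3.06 TPM (log2 -2.93, limma adjusted p = 0.009183).

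Other genes that YAP is known to activate also rose in resistant Huh7, 6 of 12 tested, with 1 lower. Over all tested genes 12.3% were called higher and 18.9% in either direction. CCDC80, a matrix protein, went from 1.49 ± 0.01 to 37.1 ± 4.38 TPM (SD, n = 2; log2 3.94, limma adjusted p = 1.552e-05). MYOF, a membrane repair protein, rose by 3.44 (adjusted p = 0.000379), IGFBP3, a binder of insulin-like growth factors, by 2.75 (6.801e-05), and NUAK2, a kinase, by 1.88 (0.0004973), all by limma. NT5E, the ecto-enzyme CD73, was the 1 that fell (log2 -1.86, limma adjusted p = 0.0112). It also was the 1 call among these genes with lenvatinib, where 2.48% of all tested genes were called. NT5E went from 95.04 ± 4.99 to 16.1 ± 1.59 TPM there (log2 -2.49, limma adjusted p = 0.0180). In the combination none rose and 3 fell, NT5E (-4.17), IGFBP3 (-2.47) and TGFB2, a growth factor of the TGF-beta family (-2.02). There 8.85% of all tested genes were called, and 875 of these 1208 were lower.

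Genes of the actin-responsive factors SRF and MRTF, which often move with YAP, had 4 of 11 higher and none lower in resistant Huh7. Over all tested genes 12.3% were called higher there. TAGLN, an actin-binding protein, went from 5.03 ± 2.29 to 68.2 ± 1.26 TPM, and TPM1, a tropomyosin, from 48.5 ± 0.75 to 188 ± 1.75 TPM (SD, n = 2; limma adjusted p = 0.0002183 and 1.737e-05). With lenvatinib, where 2.48% of all tested genes were called, 2 of 11 rose, TPM1 (log2 0.86, limma adjusted p = 0.0130) and ACTB (0.72, 0.0355). Of 6 tested AP-1 subunits, 3 rose in resistant cells, against the same 12.3% of all tested genes. These were FOSL2 (log2 2.53, limma adjusted p = 0.001326), JUND (1.14, 0.0214) and JUN (1.08, 0.0328), and FOSL1 fell (-0.91, 0.0405). FOSL1 was below 3 TPM in all 4 of these libraries, so the scale understates its change.

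**Figure D5:**
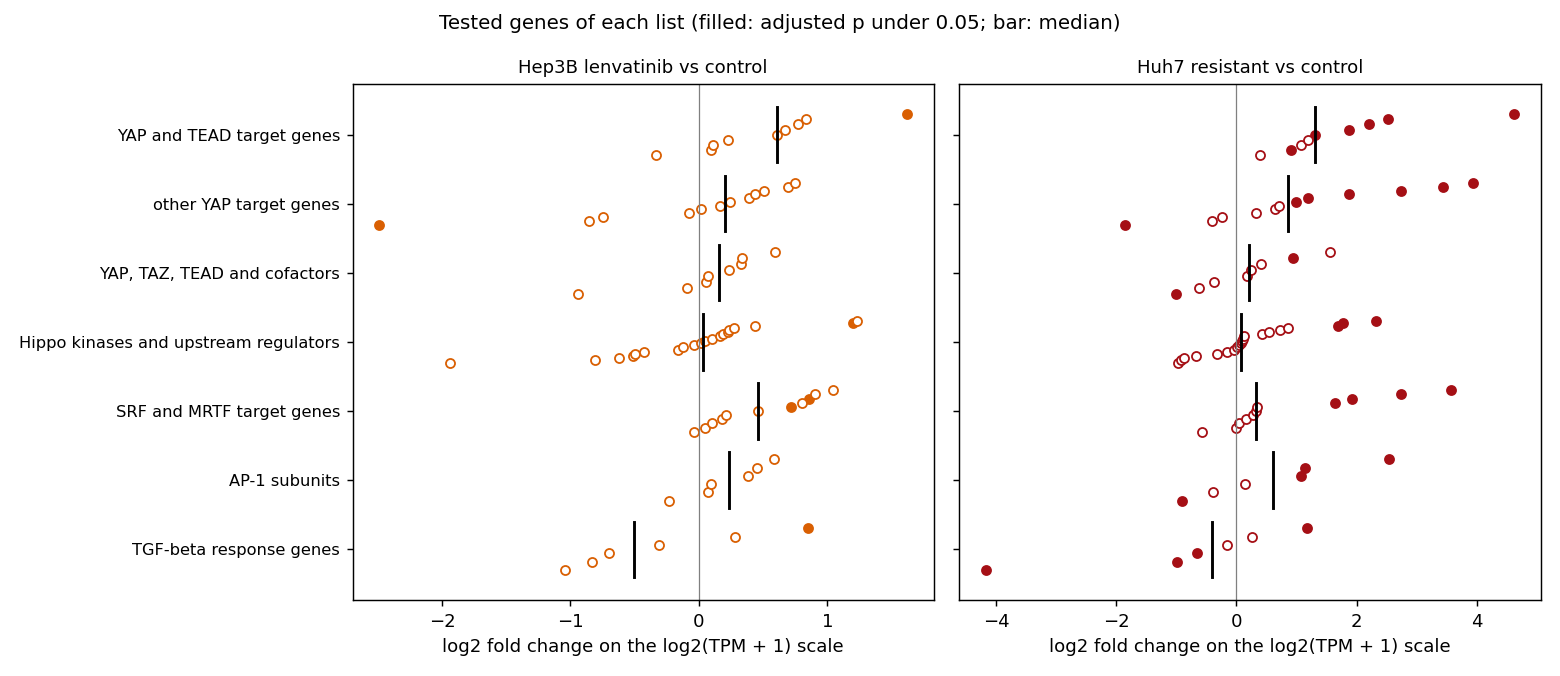
Log2 fold changes of the tested genes of 7 lists, with lenvatinib in Hep3B on the left and in resistant Huh7 on the right; filled points passed an adjusted p under 0.05 and bars are medians. The median of the YAP and TEAD target genes lies at 0.61 on the left and 1.31 on the right, and their filled points number 1 and 6.

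Markers of other cell types moved with resistance and in treated Hep3B too. Of 6 fibroblast and stellate cell genes 5 were tested, and 3 rose in resistant Huh7 (COL3A1, COL1A1 and LUM), where 12.3% of all tested genes were called higher. Their summed level was 20.5 to 21.2 TPM in controls and 40.8 to 51.2 TPM in resistant libraries, over all 6 genes. DCN was listed at 0 in 3 of these 4 libraries and at 0.235 TPM in the other, and PDGFRB overlapped between the groups. In Hep3B the same list summed to 22.1 to 24.4 TPM in controls, 10.04 to 14.3 TPM with lenvatinib, 15.6 to 15.8 TPM with WWL70 and 5.88 to 13.8 TPM in the combination. Of the 5 tested, 1 fell with lenvatinib, none with WWL70 and 2 in the combination. Over all tested genes 2.48%, 0.0147% and 8.85% were called in these comparisons. Their part in the changes of the target genes was not tested. Endothelial genes summed to 11.5 to 11.9 TPM in control Huh7, nearly all of it PECAM1, and 6.39 to 8.34 TPM in resistant cells, with KDR listed at 0. PECAM1 had 5.08 and 7.44 TPM in the resistant libraries. CDH5 went the other way, from 0 in both controls to 1.11 and 0.649 TPM, as did VWF, from 0 and 0.015 to 0.201 and 0.249 TPM. Leukocyte genes summed to 6.27 to 10.9 and 27.9 to 33.3 TPM, nearly all of it CD68, with PTPRC and CD3E below 1 TPM in every library.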

How the data were processed

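Per the labels' protocols, RNA was extracted with Trizol, and bead-captured mRNA went to an Illumina instrument. The tool fastp 0.18.0 and the build hg38 are named in the submitters' processing notes. The aligner is not given in the sources used here. This table holds TPM values made by the authors, which keep no sequencing depth, so no counting interval is given and precision rests on 2 libraries a group.

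Symbols came from a table of gene names (19702 of 20307 identifiers) and then GENCODE 29 (20162 in all), which also gave coordinates and lengths. All tests used log2(TPM + 1), and 13645 genes that reached 1 TPM in 2 or more libraries were kept. limma 3.58.1 (R 4.3.3), with an intensity trend and 1 mean per group over 12 libraries (6 residual degrees of freedom, median SE 0.29), gave 9 comparisons. The lenvatinib, WWL70 and combination comparisons share their controls, and other comparisons share libraries too. With 2 libraries against 2, exact permutation reaches at best p = 0.333 (two-sided), so it was not used. The procedure was tested on simulated data.

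All 10 target genes, YAP1, WWTR1 and TEAD1 to TEAD4 are reported whatever their result, and other genes of a list by smallest adjusted p, at most 4 per list and comparison. Likeness was computed for ANKRD1, CCN1 and CCN2. The target genes and lists were chosen with earlier results of these data known. The 24 alternatives were pseudocounts of 0.1 and 5, other filters and scalings, no trend, a fit per line, a replicate block, a stricter threshold, each library left out and, added after seeing the data, array weights and the omission of 2 A1 libraries. Some genes that the lists include are not reported here.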

Additional observations from a re-analysis of the deposited data

Results flagged for a closer look

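For 3 target genes the effect of resistance in Huh7 and that of lenvatinib in Hep3B differed by limma's test of the difference itself. The difference between the log2 fold changes was 3.001 for ANKRD1 (4.62 and 1.62, adjusted p = 0.00284), whose libraries were higher in both lines. It was 1.6003 for CCN1 (2.21 and 0.61, limma adjusted p = 0.0164), and 2.42 for F3 (2.53 and 0.11, limma adjusted p = 0.00325). ANKRD1 and F3 kept this call in 23 of 23 alternatives and CCN1 in 16 of 23, losing it without any one of 6 libraries (both Hep3B control, both lenvatinib, Huh7 control B1 and resistant B1) and at the stricter threshold.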

How the results depend on the processing

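ANKRD1, CCN1, AMOTL2 and F3 in resistant Huh7 kept their direction and call in 24 of 24 alternatives. Over all values and settings compared, 1793 kept their side of the threshold, 79 gained a call, 53 lost one and 1 turned with a call. That 1 was CRIM1 in the combination, 1.03 without both A1 libraries. Changes of direction without any call are counted among the 1793. CRIM1 in the combination against control was such a value, at 0.33 with median-ratio scaling. Counts of target genes called moved as follows, and the cause was not tested. A group left with 1 library adds nothing to the measured spread. With lenvatinib the count of 1 became 3 with median-ratio scaling, 2 with quantile normalization, 0 in the fit within the line and at an adjusted p under 0.01, 4 with array weights, 5 without both A1 libraries and 0 to 3 with single libraries left out. For WWL70 it went from 0 to 1 with array weights. For the combination the count of 2 became 0 within the line and with array weights, 1 at the stricter threshold, 5 without both A1 libraries and 0 to 5 with single libraries left out. Combination against lenvatinib went from 0 to between 0 and 7, and the interaction from 0 to between 0 and 4, with single libraries left out. Combination against WWL70 went from 1 to 4 with either scaling and without both A1 libraries, 0 with array weights and 0 to 4 with single libraries left out. Between control lines 4 became 3 with either scaling, 2 at the stricter threshold, 6 with array weights, 5 without both A1 libraries and 1 to 5 with single libraries left out. For resistance minus lenvatinib 3 became 5 with either scaling and with array weights, 7 without both A1 libraries and 2 to 6 with single libraries left out. In resistant Huh7 6 became 4 to 8 with single libraries left out.

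Counts over all genes moved by more than 1.5 times too. Lenvatinib called 338 genes, and 225 with a pseudocount of 0.1, 573 with quantile normalization, 81 within the line, 2249 with array weights, 2793 without both A1 libraries and 28 to 1649 with single libraries left out. The combination called 1208, and 343 within the line, 56 with array weights, 1964 without both A1 libraries and 187 to 8669 with single libraries left out. Resistance called 2579, and 4407 with array weights, 4985 without both A1 libraries and 1249 to 5426 with single libraries left out. Combination against WWL70 called 1078, and 207 within the line, 18 with array weights, 1957 without both A1 libraries and 100 to 8593 with single libraries left out. The control lines differed in 4688, and 9472 with array weights, 8293 without both A1 libraries and 2952 to 7347 with single libraries left out. Resistance minus lenvatinib called 860, and 1972, 2770 and 454 to 2245 in the same order. At an adjusted p under 0.01 the 6 counts, in this order, were 80, 327, 1340, 246, 3007 and 427. WWL70 called 2, and 285 with array weights. Combination against lenvatinib called 3, and 13 without a filter on low values and 1 to 7826 with single libraries left out, and the interaction 1, and 0 to 6063. The fit within a line could not be made for the 2 comparisons across lines. The replicate letters did not pair the samples across all groups. The A1 minus B1 deviations correlated over 0.1 in 3 of 15 pairs of groups and under -0.1 in 3 (range -0.12 to 0.74). Those 3 over 0.1 were strong, at 0.68, 0.62 and 0.74, and lay among the lenvatinib, combination and resistant groups. The replicate block left the target gene counts at 1 for lenvatinib, 2 for the combination and 6 for resistance, among 313, 1500 and 2738 genes called.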

Other observations

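Of 6 tested TGF-beta response genes, some of which are also known to respond to YAP, 1 rose and 3 fell in resistant Huh7. Over all tested genes 18.9% were called there. Of the 3 that fell, 1 is not reported here. TGFB1 (log2 -0.66, adjusted p = 0.0361, limma) and BHLHE40 (-0.99, 0.0493) fell, and SMAD7, an inhibitor of the pathway, rose (1.18, 0.0319). In the combination 1 of the 6 rose and 3 fell, where 8.85% of all tested genes were called. Among these, BHLHE40 (-1.98) and TGFB1 (-0.79) fell, and TGFBI, a matrix protein, rose (0.85). TGFBI was also the 1 gene of the list called with lenvatinib alone, from 368 ± 1.95 to 664 ± 19.3 TPM (log2 0.85, limma adjusted p = 0.0207). With lenvatinib 2.48% of all tested genes were called.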
